A study of Homo sapiens with 6 samples.

Results

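The kinesin genes of K562 cells were examined in polysomal RNA, that is, RNA recovered from the gradient fractions in which mRNAs are loaded with several ribosomes. Members were taken by name. They are genes whose symbol is KIF followed by a number and an optional A, B or C, or KIFC1, KIFC2 or KIFC3. This gave 42 of the 60664 genes listed. The kinesins were chosen with earlier results of these data known, which placed KIF1A and KIF21A at opposite extremes. RNH1 KO K562 cells (replicates 1 to 3) were compared with RNH1 WT K562 cells (replicates 1 to 3). K562 is a human erythroleukemia line, and RNH1 encodes the ribonuclease inhibitor. All 6 samples were treated with cycloheximide before lysis. The methods call the polysomal replicates of each genotype independent, and neither they nor the labels say whether these were separate cultures or whether the KO line is 1 clone, so the p-values below reflect how far these samples vary.

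Kinesins are motor proteins that use ATP to walk along microtubules or to take their ends apart. Mitotic kinesins build and move the spindle and divide the cell, and transport kinesins carry vesicles, mitochondria, mRNAs and ciliary cargo, mostly towards the growing microtubule end. In neurons the transport kinesins supply axons and synapses, whereas dividing blood cells depend on the mitotic set. The 42 genes were sorted into 15 mitotic, 17 transport and 10 other kinesins by their known roles, and they also fall into 13 sequence families, from kinesin-1 to kinesin-14.

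The label of the cells was checked against marker genes. Of 12 erythroid markers 11 were tested, and HBE1 was at 0 in all samples. Their summed level was 88096 to 99948 normalized counts in KO and 122489 to 127880 in WT. TFRC was the largest member of this sum, at a mean of 49285 normalized counts in KO and 52651 in WT. By the test described below, 4 of these 11 were lower in KO and 7 did not pass, where 24.1% of all genes tested were lower. The labels call the cells lymphoblasts, yet MS4A1 and CD8A were at 0 and 6 of 9 lymphoid markers were too low to test. The summed lymphoid level was 616 to 792 normalized counts in KO and 421 to 592 in WT. Neuronal markers mattered because several transport kinesins are known from neurons. RBFOX3, STMN2 and NEFL were at 0, and the 9 neuronal markers summed to 184 to 196 normalized counts in KO and 381 to 615 in WT, mostly SYP. The part of these markers in the kinesin values was not tested. RNH1 itself had 1058, 1144 and 997 normalized counts in KO replicates 1, 2 and 3, against 4566, 2857 and 1865 in WT replicates 1, 2 and 3, or 34.4% of the WT mean. Reads in genes numbered 34908202 to 46256928 per sample, so 3 reads, the floor used for a level told from 0, corresponded to 2.58 to 3.40 normalized counts (counting error only).

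Kinesin transcripts that passed the test were mostly higher in KO, and KIF1A was a large exception. The test was limma on log2(normalized count + 1), called at a Benjamini-Hochberg adjusted p under 0.1, for genes whose mean over the 6 samples reached 10 normalized counts. Of the 42 kinesins 33 were tested, and of these 14 were higher, 2 were lower (KIF1A and KIF9) and 17 did not pass. KIF21A is among the 14 and KIF1A among the 2, and both were known beforehand to lie at the extremes. Over all 16652 genes tested 24.1% were higher and 24.1% lower, and over the 12091 protein-coding genes tested 23.2% were higher and 25.8% lower. On the log2 scale, the fold change (KO over WT) had a median of 0.42 over the tested kinesins (quartiles 0.08 and 0.67), 0.03 over all genes tested and -0.01 over protein-coding genes. Every KO sample was above every WT sample in 13 kinesins and below in 3 (KIF1A, KIF9 and KIF27), against 25.6% and 25.5% of all genes tested.

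Reads of all kinesins together made up 0.322%, 0.317% and 0.341% of the reads in genes of KO replicates 1, 2 and 3, against 0.195%, 0.255% and 0.183% in WT replicates 1, 2 and 3. The groups did not overlap (p = 0.1 by a two-sided exact permutation test over samples, which cannot go lower with 3 against 3, and 0.175 when adjusted over the 14 per-sample measures computed in this way). The 14 include the KIF1A and KIF21A shares and the mitotic to transport ratio without KIF1A, given below as description. Their permutation p-values of 0.1 lower the adjusted value. On the scale of normalized counts the kinesin sum was 115504, 112843 and 131679 in KO replicates 1, 2 and 3, against 94023, 113697 and 82332 in WT replicates 1, 2 and 3, and there the groups overlapped through WT replicate 2. Polysomal levels combine the abundance of a transcript with its loading on ribosomes, and in bulk samples fewer cells with a transcript and less of it per cell cannot be told apart. The values are also relative to the other transcripts of a sample. The size factors used by the authors and the total of reads gave different scales: with library total scaling the median of all genes moved up by 0.32 on the log2 scale, and 23 kinesins were higher and 2 lower. Of all genes tested 6618 were then higher and 2419 lower.

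**Figure D1:**
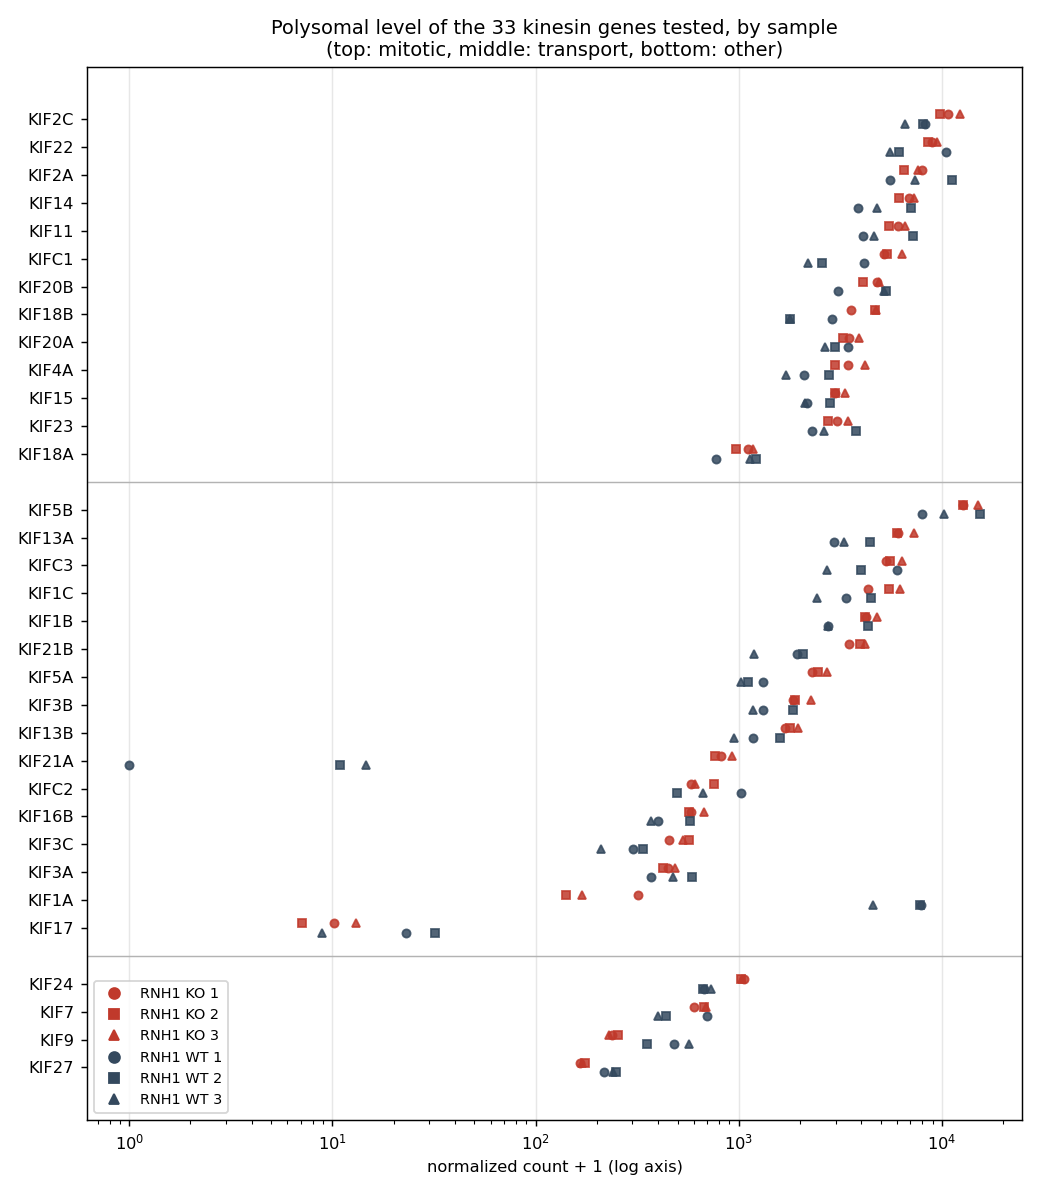
Normalized count + 1 (log axis) of the 33 kinesins tested in each of the 6 samples, with RNH1 KO in red above RNH1 WT in dark blue and marker shapes for replicates. KIF1A (KO 140 to 319, WT 4573 to 7863 normalized counts) and KIF21A (KO 760 to 927, WT 0 to 13.6) stand apart, and the other motors lie within a few fold of each other between genotypes.

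KIF1A was the kinesin that was lowest in KO relative to WT. It encodes a fast motor of the kinesin-3 family that carries synaptic vesicle precursors and dense core vesicles in neurons. It had 319, 140 and 168 normalized counts in KO replicates 1, 2 and 3, against 7863, 7801 and 4573 in WT replicates 1, 2 and 3. All 3 KO samples lay far under the lowest WT sample, WT replicate 3. The mean was 209 ± 96.6 in KO and 6746 ± 1882 in WT (SD, n = 3 each), so KO held 3.10% of the WT level. By limma its log2 fold change was -5.06 (SE 0.28, adjusted p = 2.45e-09), the 9th lowest of all 16652 genes tested. KIF1A was known beforehand to lie at an extreme of these data, so this p-value and rank are description only. The reads were many enough for counting error to be small, with 678 in KO and 19415 in WT in all, a WT over KO ratio of 32.5 (exact 95% interval 30.1 to 35.1, counting error only).

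KIF21A lay at the opposite end. It encodes a kinesin-4 motor that moves slowly and dampens microtubule growth at the cell cortex, and it is known from congenital fibrosis of the extraocular muscles. It had 821, 760 and 927 normalized counts in KO replicates 1, 2 and 3, against 0, 9.95 and 13.6 in WT replicates 1, 2 and 3. WT replicate 1 held no read of it, and the other two WT samples were above the floor of 3 reads. In the limma fit its log2 fold change was 7.26 (SE 1.10, adjusted p = 0.00514), the 3rd highest of all genes tested, and this value depends on the added count of 1. Like KIF1A it was known beforehand to lie at an extreme, so this p-value and rank are description only. Pooled reads numbered 2712 in KO and 22 in WT, a KO over WT ratio of 109 (exact 95% interval 71.7 to 174, counting error only). KIF21A passed the filter on low values through its KO samples only, so a gene with its WT level had to differ to be tested.

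Neither gene overlaps another gene in GENCODE 44 on GRCh38, the build of the deposited counts. KIF1A (ENSG00000130294) lies on the minus strand of chromosome 2 from 240713761 to 240824293, with 49 exons and 9131 nucleotides in its canonical transcript. KIF21A (ENSG00000139116) lies on the minus strand of chromosome 12 from 39293228 to 39443390, with 38 exons and 6371 nucleotides. The 120 bases around their start sites, 90 before and 30 from the start, are shown because these are the motors at the opposite extremes, on GRCh38.p14 from RefSeq, 5′ to 3′ on the gene's strand (KIF1A chr2:240820190-240820309, KIF21A chr12:39443091-39443210). No letters are in capitals, since neither window holds a motif searched below.
KIF1A: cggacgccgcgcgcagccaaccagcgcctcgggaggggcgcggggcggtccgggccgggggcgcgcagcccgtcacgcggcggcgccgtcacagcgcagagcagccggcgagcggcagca
KIF21A: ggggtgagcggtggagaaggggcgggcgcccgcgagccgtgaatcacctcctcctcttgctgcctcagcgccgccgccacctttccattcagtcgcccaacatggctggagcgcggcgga
Both promoters are rich in CpG. The 300 bases from 250 before to 50 after the start held 51 CpG for KIF1A and 34 for KIF21A, against a median of 14 over all 35116 RefSeq promoters of that length and of 29.5 over the 34 kinesins matched to the table.

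**Figure D2:**
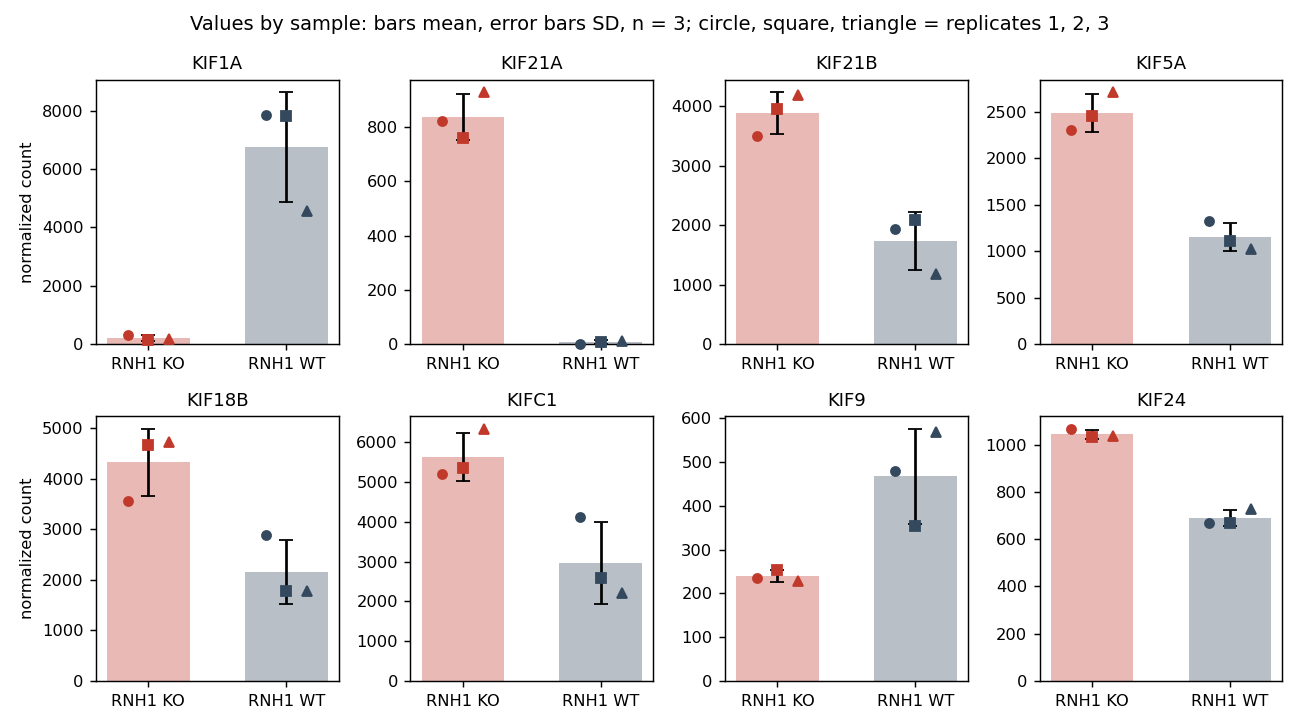
Normalized counts of 8 kinesins by sample, RNH1 KO left and RNH1 WT right, with bars for the mean and error bars for the SD (n = 3 each). KIF1A and KIF9 are lower in KO (3.10% and 51.3% of the WT mean), and KIF21A, KIF21B, KIF5A, KIF18B, KIFC1 and KIF24 are higher, with no overlap between groups in any of the 8.

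Among the 17 transport kinesins 16 were tested, 9 were higher, 1 was lower and 6 did not pass, with a median log2 fold change of 0.50, beside 24.1% higher and 24.1% lower of all genes tested. The 9 include KIF21A and the 1 is KIF1A, both known beforehand to lie at the extremes. KIF5C, the neuronal kinesin-1 heavy chain, had no read in any sample. The motors that rose belong to several families, with 4 of the 7 kinesin-3 genes, 2 of the 4 kinesin-2 genes, KIF5A of kinesin-1 and both KIF21 genes of kinesin-4 higher, counts too small to set against that share.

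KIF21B, the close relative of KIF21A that pauses growing microtubules, had 3495, 3957 and 4189 normalized counts in KO replicates 1, 2 and 3, against 1938, 2080 and 1183 in WT replicates 1, 2 and 3. The lowest KO sample was above the highest WT sample. limma put its log2 fold change at 1.20 (SE 0.22, adjusted p = 0.00049).

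KIF5A, a kinesin-1 heavy chain known for axonal transport of neurofilaments and mitochondria, had 2302, 2453 and 2707 normalized counts in KO replicates 1, 2 and 3, against 1321, 1112 and 1025 in WT replicates 1, 2 and 3. Each KO sample exceeded the highest WT sample, WT replicate 1. Its log2 fold change by limma was 1.11 (SE 0.19, adjusted p = 0.000256). DCTN2, a dynactin gene on the opposite strand that overlaps KIF5A, did not pass (log2 fold change 0.30, limma adjusted p = 0.259). The sources used here do not give the strand setting of the counting, so reads of such pairs may be shared.

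KIF5B, the ubiquitous kinesin-1 heavy chain and the transport kinesin with the highest level per transcript length in both genotypes, had 12671, 12643 and 15141 normalized counts in KO replicates 1, 2 and 3, against 7949, 15391 and 10228 in WT replicates 1, 2 and 3. WT replicate 2 exceeded every KO sample. KIF5B did not pass, with a log2 fold change of 0.32 (SE 0.24, limma adjusted p = 0.306). Without WT replicate 2 it was at 0.58 and was called (limma adjusted p = 0.0247), and without WT replicate 1 it was at 0.099.

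KIF13A, which carries endosomal and melanosomal cargo, had 6114, 6024 and 7264 normalized counts in KO replicates 1, 2 and 3, against 2955, 4405 and 3310 in WT replicates 1, 2 and 3. The groups were apart, at a log2 fold change of 0.88 (limma adjusted p = 0.0031). KIF3C, an accessory subunit of kinesin-2, had 453, 567 and 532 normalized counts in KO replicates 1, 2 and 3, against 302, 337 and 210 in WT replicates 1, 2 and 3. Again the groups did not overlap, at a log2 fold change of 0.89 (limma adjusted p = 0.00565).

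The remaining transport kinesins that rose had smaller changes. In limma's fit KIF1C, a motor for vesicles and integrins, changed by 0.67 on the log2 scale (adjusted p = 0.0303) and KIF13B by 0.57 (adjusted p = 0.0402). KIF3B, a motor subunit of the ciliary kinesin-2, changed by 0.49 (adjusted p = 0.0709) and KIF1B, which carries mitochondria and synaptic vesicle precursors, by 0.46 (adjusted p = 0.0989). KIF13B and KIF3B had KO samples all above the WT samples, and KIF1C and KIF1B had overlapping groups through WT replicate 2. Each of these 4 calls was lost in more than 1 setting with a library left out, and such settings hold fewer samples. Genes called higher over the whole table also moved, from 4010 to 3147, 2846 and 2828 without KO replicate 1, 2 or 3. Without WT replicate 1, 2 or 3 they numbered 4396, 4500 and 3584. KIF1B was no longer called without KO replicate 1 (adjusted p = 0.183), KO replicate 2 (0.184), KO replicate 3 (0.30), WT replicate 1 (0.201) or WT replicate 3 (0.241). KIF3B was lost without the same samples (0.121, 0.143, 0.284, 0.115 and 0.204). KIF13B was lost without KO replicate 2 (0.107), KO replicate 3 (0.156) or WT replicate 3 (0.146), and KIF1C without KO replicate 3 (0.136) or WT replicate 3 (0.137).

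Of the transport kinesins that did not pass, KIF16B (0.46, adjusted p = 0.108) and KIFC3 (0.51, adjusted p = 0.114), a minus-end motor, had log2 fold changes close to those of the last motors called (limma). KIF3A (-0.05, adjusted p = 0.872), the partner of KIF3B in cilia, and KIFC2 (-0.12, adjusted p = 0.736) had small fitted values by limma. KIF17, a kinesin-2 motor known from dendrites, had 9.23, 6.12 and 12.1 normalized counts in KO replicates 1, 2 and 3, against 21.9, 30.8 and 7.93 in WT replicates 1, 2 and 3 (log2 fold change -0.93, SE 0.55, limma adjusted p = 0.195). It was near the filter on low values, and its groups overlapped. Leaving out 1 library brought in calls here too, KIF16B (0.65) without WT replicate 2, KIFC3 (0.79) without WT replicate 1 and KIF17 (-1.46, lower) without WT replicate 3.

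**Figure D3:**
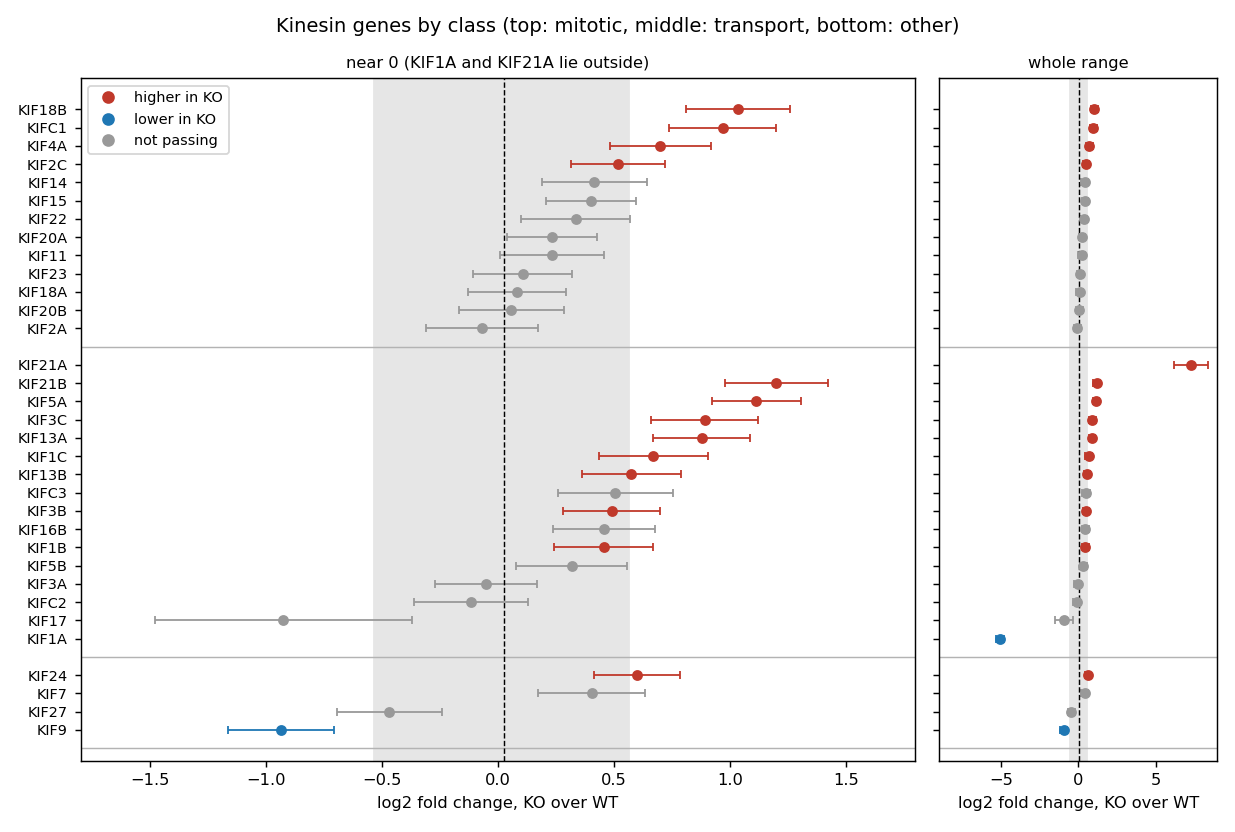
Log2 fold change of KO over WT with its standard error from limma for the 33 kinesins tested, sorted within class, near 0 on the left and over the whole range on the right. The dashed line is the median (0.03) and the grey band the quartiles (-0.54 to 0.57) of all 16652 genes tested, and most motors lie right of the line.

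Among the 15 mitotic kinesins 13 were tested, 4 were higher (30.8%, near the 24.1% of all genes tested) and 9 did not pass. Their median log2 fold change was 0.34, with 0.17 when WT replicate 3 was left out and 0.47 when WT replicate 2 was. KIF2B had no read, and KIF4B, an intronless copy of KIF4A with 1 exon, had 2.77 to 12.1 normalized counts in KO and 1.13 to 9.95 in WT and was not tested. Lower mitotic kinesins numbered 0 by limma, edgeR and DESeq2, also at an unadjusted p under 0.05. Of all 16652 genes tested 24.1% were called lower by limma, 4284 by edgeR and 4221 by DESeq2. No share over all genes was computed at that unadjusted p, and 13 genes are few to set against these.

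KIF18B, a kinesin-8 motor that shortens astral microtubules, had 3568, 4681 and 4737 normalized counts in KO replicates 1, 2 and 3, against 2888, 1777 and 1790 in WT replicates 1, 2 and 3. The lowest KO sample was above the highest WT sample. KIF18B rose by 1.04 on the log2 scale (SE 0.22, limma adjusted p = 0.00159).

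KIFC1, a minus-end motor that gathers spindle poles and extra centrosomes, had 5208, 5339 and 6331 normalized counts in KO replicates 1, 2 and 3, against 4131, 2577 and 2199 in WT replicates 1, 2 and 3. WT replicate 1 was nearest to the KO samples, and the groups were apart. KIFC1 rose by 0.97 on the log2 scale (SE 0.23, limma adjusted p = 0.00318).

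KIF4A, the chromokinesin that sets the length of the central spindle, had 3438, 2971 and 4200 normalized counts in KO replicates 1, 2 and 3, against 2091, 2793 and 1714 in WT replicates 1, 2 and 3. KIF4A rose by 0.70 on the log2 scale (limma adjusted p = 0.0171), a call lost without KO replicate 3 (adjusted p = 0.115). KIF2C, the microtubule depolymerase that corrects wrong kinetochore attachments, had 10738, 9754 and 12264 normalized counts in KO replicates 1, 2 and 3, against 8302, 8041 and 6557 in WT replicates 1, 2 and 3. Its groups were apart and it rose by 0.52 on the log2 scale (limma adjusted p = 0.0528). It was lost without KO replicate 1 (0.149), KO replicate 2 (0.107), KO replicate 3 (0.254) or WT replicate 3 (0.116).

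The other mitotic motors had overlapping groups, apart from KIF15, whose 3 KO samples were all above the WT samples (log2 fold change 0.40, limma adjusted p = 0.112). KIF22, a chromokinesin, had the highest level per transcript length of all kinesins in both genotypes, at 4308 normalized counts per kb in KO and 3552 in WT, with 8897, 8577 and 9422 normalized counts in KO replicates 1, 2 and 3, against 10479, 6131 and 5565 in WT replicates 1, 2 and 3. WT replicate 1 exceeded all KO samples (log2 fold change 0.34, limma adjusted p = 0.270), and without it KIF22 was at 0.62 and was called (limma adjusted p = 0.0164), whereas without WT replicate 3 it was at 0.16. KIF11, the tetrameric motor that pushes spindle poles apart, did not pass at 0.23 on the log2 scale (limma adjusted p = 0.432), nor did KIF14 at 0.42 (adjusted p = 0.153) or KIF20A at 0.23 (adjusted p = 0.355). KIF23, the motor of centralspindlin, had 0.11, KIF18A, which aligns chromosomes, had 0.08, KIF20B, which acts in cytokinesis, had 0.06 and KIF2A, a microtubule depolymerase, had -0.07 (limma adjusted p from 0.722 to 0.861). Without WT replicate 2, KIF11 (0.47), KIF14 (0.65) and KIF15 (0.53) were called higher.

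Promoters of mitotic genes are known for 2 short elements that time transcription to G2 and M phase, the cell cycle genes homology region (CHR), here TTTGAA or TTCGAA, and the CCAAT box bound by NF-Y. Both were searched on both strands in the 300 bases around the start in the RefSeq table, which held 34 of the 42 kinesins (KIF5A, KIF13B, KIF19, KIF21B, KIF26B, KIF27, KIFC2 and KIFC3 had no entry). A CHR was found in 11 of 15 mitotic kinesins, 1 of 12 transport kinesins (KIF5B) and 1 of 7 other kinesins (KIF24), and in 16.4% of all promoters. CCAAT was found in 11 of 15 mitotic, 4 of 12 transport and 3 of 7 other kinesins, and in 34.6% of all promoters. Both were found together in 10 of 15 mitotic, 1 of 12 transport and 1 of 7 other kinesins, and in 6.38% of all promoters. The 2 motifs share no letters by overlap in the windows shown, and a match is a run of letters, not a site shown to be bound.

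Promoter windows of 3 mitotic kinesins that rose and 3 that did not pass are shown to compare these elements, each with 90 bases before and 30 from the start, on GRCh38.p14, 5′ to 3′ on the gene's strand, with CHR and CCAAT letters of either strand in capitals. They lie at chr17:44947744-44947863 (KIF18B, minus), chr6:33391733-33391852 (KIFC1, plus), chrX:70290014-70290133 (KIF4A, plus), chr10:92593040-92593159 (KIF11, plus), chr11:28108127-28108246 (KIF18A, minus) and chr15:69414259-69414378 (KIF23, plus).
KIF18B: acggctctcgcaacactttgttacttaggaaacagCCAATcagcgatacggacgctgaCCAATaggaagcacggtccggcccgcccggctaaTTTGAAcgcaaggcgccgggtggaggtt
KIFC1: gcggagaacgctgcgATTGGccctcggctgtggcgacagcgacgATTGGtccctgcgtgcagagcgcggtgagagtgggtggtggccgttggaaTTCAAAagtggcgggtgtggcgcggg
KIF4A: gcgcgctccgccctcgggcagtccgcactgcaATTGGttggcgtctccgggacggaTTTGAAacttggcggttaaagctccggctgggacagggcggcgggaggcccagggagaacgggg
KIF11: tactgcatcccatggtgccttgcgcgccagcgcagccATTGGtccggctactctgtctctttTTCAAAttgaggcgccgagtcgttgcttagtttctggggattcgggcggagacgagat
KIF18A: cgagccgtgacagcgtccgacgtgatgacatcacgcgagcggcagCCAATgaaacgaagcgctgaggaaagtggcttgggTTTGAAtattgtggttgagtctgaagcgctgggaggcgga
KIF23: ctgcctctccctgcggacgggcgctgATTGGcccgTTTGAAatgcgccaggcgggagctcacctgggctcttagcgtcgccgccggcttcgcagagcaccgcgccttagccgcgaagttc
All 6 windows hold a CHR and at least 1 CCAAT box. Of the mitotic kinesins higher in KO 3 of 4 had both elements (KIF2C had neither), and of those that did not pass 6 of 9 had both, so the elements were present in motors that rose and in motors that did not pass.

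Mitotic and transport kinesins were compared within samples, where the scale of a library cancels. The ratio of summed mitotic to summed transport normalized counts was 1.51, 1.35 and 1.39 in KO replicates 1, 2 and 3, against 1.37, 1.28 and 1.51 in WT replicates 1, 2 and 3, and the groups overlapped (two-sided exact permutation p = 0.7). KIF1A alone made up 0.706%, 0.296% and 0.309% of the transport kinesin counts in KO replicates 1, 2 and 3, against 20.3%, 15.9% and 14.3% in WT replicates 1, 2 and 3. With KIF1A left out, a choice made after its values were seen, the ratio was 1.52, 1.35 and 1.39 in KO replicates 1, 2 and 3, against 1.72, 1.52 and 1.76 in WT replicates 1, 2 and 3, with every KO sample below every WT sample by a narrow margin, given here as a description with no test. The median log2 fold change was 0.50 for transport and 0.34 for mitotic kinesins, and with 6 motors moved to another plausible class it was 0.46 for transport and 0.40 for mitotic kinesins.

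For some motors the share among close relatives did not overlap between genotypes. Shares of level per kb were used, since the transcripts differ in length. KIF1A was 3.60%, 1.40% and 1.48% of the KIF1A, KIF1B and KIF1C sum in KO replicates 1, 2 and 3, against 55.8%, 47.0% and 47.2% in WT replicates 1, 2 and 3, so the largest of the 3 in WT was the smallest in KO. KIF21A was 25.6%, 22.0% and 24.5% of the KIF21A and KIF21B sum in KO replicates 1, 2 and 3, against 0%, 0.696% and 1.66% in WT replicates 1, 2 and 3. KIF5A was 15.6%, 16.5% and 15.4% of the KIF5A and KIF5B sum in KO replicates 1, 2 and 3, against 14.4%, 6.83% and 9.23% in WT replicates 1, 2 and 3. WT replicate 1 lay close under the KO samples. KIF3A was 14.5% ± 0.811 of the kinesin-2 motors KIF3A, KIF3B and KIF3C in KO and 20.9% ± 3.40 in WT (SD, n = 3 each), lower in every KO sample, and KIFC1 was 55.2% ± 0.855 of the kinesin-14 sum of KIFC1, KIFC2 and KIFC3 in KO and 45.7% ± 1.66 in WT (SD, n = 3 each), higher in every KO sample. The shares of KIF5A, KIF3A, KIF3C and KIFC1 each had an exact permutation p of 0.1, the smallest possible, and an adjusted p of 0.175. That adjustment included the KIF1A and KIF21A shares and the ratio without KIF1A, whose permutation p-values of 0.1 lower it. The shares of KIF1A and KIF21A are a description only, since both genes were known beforehand to lie at the extremes. The shares of KIF13A, KIF18B, KIF2C and KIF20A among their relatives had overlapping groups (exact permutation p from 0.2 to 0.6).

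**Figure D4:**
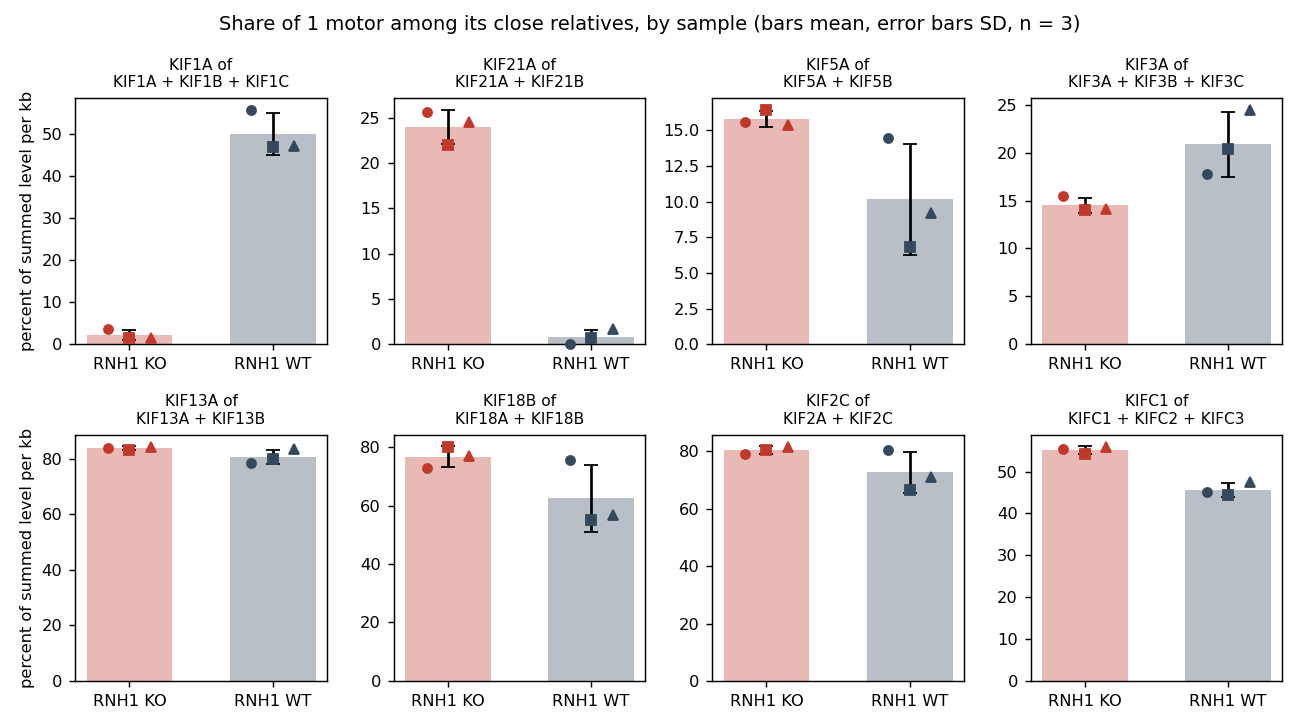
Percent of the summed level per kb that 1 motor takes among its close relatives, by sample, RNH1 KO left and RNH1 WT right, bars for the mean and error bars for the SD (n = 3 each). KIF1A takes 2.16% in KO, against 50.0% in WT, and KIF21A stands at 24.0% in KO, against 0.784% in WT, while KIF13A, KIF18B and KIF2C have overlapping groups.

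Of the 10 kinesins with other roles 4 were tested. KIF24, a kinesin-13 protein that restrains the growth of cilia from centrioles, had 1066, 1031 and 1035 normalized counts in KO replicates 1, 2 and 3, against 670, 669 and 728 in WT replicates 1, 2 and 3, with little spread in either group and 0.60 higher on the log2 scale (limma adjusted p = 0.0173). KIF9, a kinesin-9 motor of ciliary and sperm axonemes, had 236, 254 and 229 normalized counts in KO replicates 1, 2 and 3, against 480, 354 and 569 in WT replicates 1, 2 and 3. All KO samples were below all WT samples (log2 fold change -0.94, limma adjusted p = 0.00395). KIF9 overlaps KLHL18 and an antisense RNA on the opposite strand. KIF27, a relative of KIF7, had 165, 174 and 168 normalized counts in KO replicates 1, 2 and 3, against 217, 248 and 239 in WT replicates 1, 2 and 3. Its groups were apart, yet it did not pass (log2 fold change -0.47, limma adjusted p = 0.112). KIF7, the ciliary regulator of Hedgehog signalling, did not pass either (log2 fold change 0.40, limma adjusted p = 0.172). Without WT replicate 1, KIF27 (-0.52) was called lower and KIF7 (0.65) higher.

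The other 6 were too low to test. KIF12 had no read, KIF6 had at most 1.13, KIF19 at most 2.77, KIF26B at most 8.16 and KIF26A at most 12.9 normalized counts. KIF25, just under the filter, had 50 reads in KO and 10 in WT, a KO over WT ratio of 4.41 (exact 95% interval 2.21 to 9.76, counting error only). It was called higher by limma when all genes with a read were tested.

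Kinesins work with light chains, adaptors and cargo linkers, and several of these were higher. Of 8 kinesin partners 5 were higher and 3 did not pass, with a median log2 fold change of 0.60. These were the kinesin light chains KLC1 (0.85), KLC4 (0.72) and KLC2 (0.72), and the kinesins named outside the KIF series, CENPE (0.66), which pulls chromosomes to the spindle equator, and STARD9 (0.53). KIFAP3, the non-motor subunit of kinesin-2, had 0.01 and did not pass, nor did KIFBP (0.17), which inhibits several kinesins, or KLC3 (-0.74). Of 18 cargo adaptors 7 were higher and 3 lower (median 0.40), with MADD (1.04), an adaptor of KIF1A and KIF1B, MAPK8IP3 (0.93), BICD2 (0.91) and TRAK1 (0.68) higher and MAPK8IP2 (-2.11) and TRAK2 (-0.63) among those lower. Beside these counts stand the 24.1% higher and 24.1% lower of all genes tested. The values are not corrected for transcript length, and the part of length in them was not tested. The median canonical transcript was 5693 nucleotides for the cargo adaptors and 2752 for the kinesin partners tested, against 5342 for the kinesins.

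Dynein, with its activator dynactin, is the motor that runs towards the other microtubule end. Of 12 dynein genes 10 were tested, 2 were higher and 5 lower (median -0.56). The heavy chain DYNC1H1 (0.97) and the intermediate chain DYNC1I2 (0.54) were higher, and the light chains DYNLT2B (-1.87), DYNLT3 (-1.58), DYNLRB1 (-1.37), DYNLL1 (-1.26) and DYNLT1 (-0.90) lower. Of 12 dynactin genes 1 was higher and 5 lower (median -0.12), with DCTN1 (1.20), its long arm, higher and DCTN6 (-1.59), CAPZA1 (-1.12) and CAPZA2 (-1.10) among those lower. Of 26 spindle proteins that work with mitotic kinesins 8 were higher and 3 lower (median 0.16), with NUMA1 (1.05), TPX2 (0.77), CENPF (0.76) and INCENP (0.76) the highest and MAD2L1 (-1.46), BIRC5 (-0.77) and SPC25 (-0.68) lower. Of 12 alpha and beta tubulin genes, which code for the track itself, 4 were higher and 1 lower (median 0.13), with TUBA8 (1.94), TUBA4A (1.18) and TUBB4B (0.76) higher and TUBA1B (-0.61) lower. Of all genes tested 24.1% were higher and 24.1% lower, and the shares of spindle and tubulin genes that were higher (30.8% and 33.3%) are near that. The values in this paragraph are log2 fold changes of KO over WT, and those given as higher or lower passed at an adjusted p under 0.1 from limma. They are not corrected for transcript length. The median canonical transcript was 2318 nucleotides for the dynein and 2383 for the dynactin genes tested, against 5342 for the kinesins. The part of length in the dynein and dynactin values was not tested.

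Kinesin transcripts are long, and length moved with the result. The median canonical transcript of the tested kinesins was 5342 nucleotides (2081 for KIF22 to 10855 for KIF1B), against 3240 for protein-coding genes tested, and 29 of 33 kinesins were longer than that. The median was 6062 for transport and 4088 for mitotic kinesins. After the trend of each sample with transcript length was removed, 11 kinesins were higher and 3 lower. Of all 16609 genes with a length, 4053 were then higher and 4042 lower. The calls of KIF13B, KIF1B, KIF1C and KIF3B were lost, KIF22 (0.46, limma adjusted p = 0.0940) was gained as higher and KIF27 (-0.73, adjusted p = 0.0143) as lower. Transport kinesins higher then numbered 5 and mitotic kinesins higher 5, with medians of 0.31 and 0.22. KIF1A (-5.40) and KIF21A (7.05) stayed at the extremes, and KIF5A (0.94), KIF21B (0.85), KIF13A (0.69), KIF3C (0.74), KIF18B (0.96), KIFC1 (1.05) and KIF9 (-0.97) kept their calls.

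**Figure D5:**
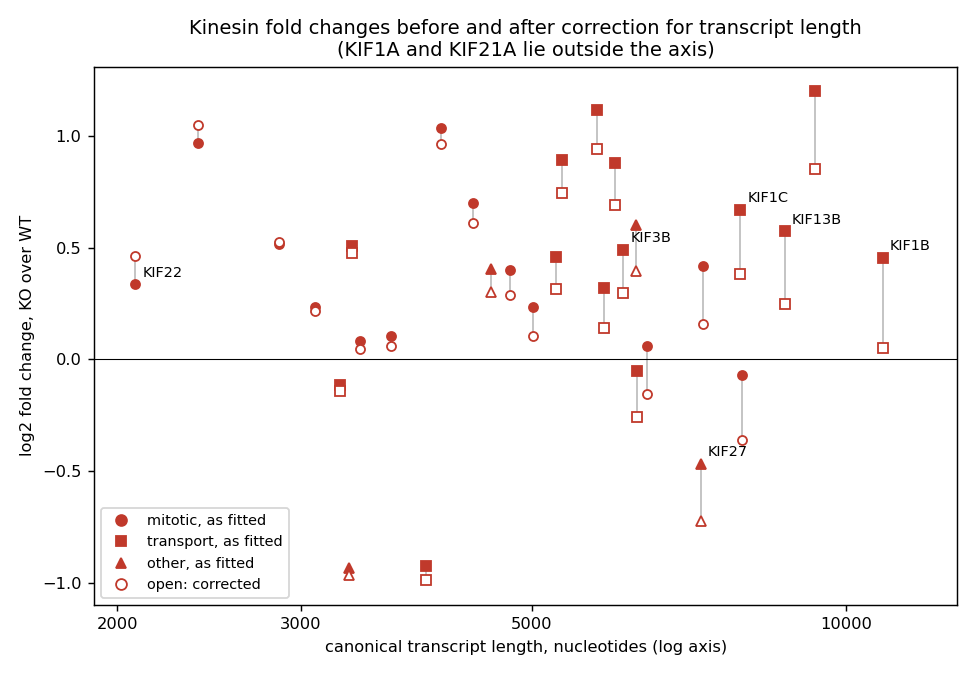
Log2 fold change of KO over WT against canonical transcript length (log axis) for 31 kinesins, as fitted (filled) and after correction for transcript length (open), joined by a line, with symbols for the class. Long motors such as KIF1B (0.46 as fitted, 0.05 corrected) move down most, and the genes whose call changed are named.

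Single libraries also moved with the kinesin values. WT replicate 2 was the highest of the WT samples in 20 of 33 kinesins (60.6%, against 35.5% of all genes tested) and WT replicate 3 the lowest in 18. KO replicate 3 was the highest of the KO samples in 26 of 33 (78.8%, against 35.5% of all genes tested). The median coefficient of variation of the tested kinesins was 9.74% in KO and 27.6% in WT, close to the 11.3% and 25.7% of all genes tested. Without WT replicate 2, 19 kinesins were higher and 2 lower, without WT replicate 3, 9 were higher and 3 lower, and without KO replicate 3, 8 were higher and 2 lower. The genes called higher over the whole table moved too, to 4500, 3584 and 2828 in these 3 settings, against 4010 with all libraries. The part of these libraries in the result was not tested. Of the 16 calls, 9 were kept under all 20 alternatives tried (KIF1A, KIF21A, KIF5A, KIF21B, KIF18B, KIFC1, KIF9, KIF3C and KIF13A), and 0 of the 16 changed direction under any of them. For KIF1A and KIF21A this is description only, since both were known beforehand to lie at the extremes.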

How the data were processed

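Polysomal RNA of 3 RNH1 KO and 3 RNH1 WT samples of K562 cells had been sequenced as stranded total RNA libraries. The authors aligned reads to GRCh38 (HISAT2) and assigned them to Ensembl genes (featureCounts), versions 2.2.1 and 2.0.1 in the submitters' processing notes. Its strand setting is not stated. The deposited signal of each sample is the gene count over 1 size factor from DESeq2, here called the normalized count. Columns of the authors' own comparison, which hold means, fold changes and p-values, were not used.

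Each library's nonzero values came out as whole reads in 100% of cases (tolerance 1e-06), with 34908202 to 46256928 reads in genes per sample. Normalized counts averaging 10 or more (16652 genes) were log2 transformed after adding 1 and fitted with limma 3.58.1 (R 4.3.3) with trend, robust shrinkage and genotype alone. Calls were made at a Benjamini-Hochberg adjusted p under 0.1 over all genes tested. edgeR 4.0.16 and DESeq2 1.42.0 were run on the recovered reads as alternatives. Fits were tested on simulated data. Transcript lengths are those of canonical GENCODE 44 transcripts. Length correction removed a lowess trend (span 0.3) per sample. Every kinesin may be named. Full values are given for KIF1A, KIF21A, called motors over 1 on the log2 scale and the most abundant motors, and of other lists up to 4 called members with the largest change. More motors are given in full, chosen after their values were seen. Some genes of the other lists are not reported here. The members, classes and lists were chosen with earlier results of these data known.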

Additional observations from a re-analysis of the deposited data

How the results depend on the processing

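With library total scaling all genes higher became 6618 and lower 2419 (4010 and 4012 as reported), kinesins higher 23, mitotic kinesins higher 9, and the medians 0.66 for mitotic and 0.82 for transport kinesins. With correction for transcript length 5 transport kinesins were higher. With that correction and the replicate block together 9 kinesins were higher, 5 of them transport, where 3453 of all genes were higher. Leaving out 1 sample gave 8 to 19 kinesins, 2 to 7 mitotic kinesins and 5 to 11 transport kinesins higher. Of all genes 2828 to 4500 were higher in these settings. Only kinesins that had not passed changed direction. Leaving out 1 sample gave log2 fold changes of -0.31 to 0.20 for KIF2A, -0.20 to 0.20 for KIF20B, -0.12 to 0.21 for KIF18A, -0.047 to 0.31 for KIF23, -0.36 to 0.16 for KIFC2 and -0.22 to 0.11 for KIF3A. With library total scaling KIF2A was at 0.26, KIFC2 at 0.21 and KIF3A at 0.27, KIF3A was at 0.014 with upper-quartile scaling, and KIF20B was at -0.16 with length correction, alone or with the block. The cause was not tested.

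Replicate numbers did not pair the samples (correlations of deviations -0.16, -0.19 and -0.27). The deviations of KO replicates 1, 2 and 3 correlated most with those of WT replicates 3, 1 and 2 (0.28, 0.24 and 0.27). A block by that order was not fitted, and what these samples share was not tested. With the replicate block 11 kinesins were higher and 2 lower (3243 and 3310 of all genes), and no sample correlated best with its own number. edgeR called 13 higher and 2 lower (3739 and 4284 of all genes), and DESeq2 13 higher and 3 lower (3791 and 4221). Of the 17 kinesins that had not passed, 11 were called under at least 1 alternative. Groups of 3 limit the precision, so small changes may be missed.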

Other observations

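Genes beside KIF21A and KIF1A were read as values. SLC2A13, a myo-inositol transporter gene 312 kb from KIF21A, had 111, 120 and 118 normalized counts in KO replicates 1, 2 and 3, against 23.0, 38.8 and 17 in WT replicates 1, 2 and 3 (log2 fold change 2.18, adjusted p = 0.000107 from limma), with every KO sample above every WT sample. On the other side of KIF21A, CPNE8 had a log2 fold change of 0.02 (adjusted p = 0.939) and ALG10B one of -1.32 (adjusted p = 0.000372). ABCD2, the nearest protein-coding gene at 107 kb, had no read. Beside KIF1A, GPR35 had a log2 fold change of 0.93 and did not pass (adjusted p = 0.158), and AQP12A, AQP12B, AGXT, MAB21L4 and CROCC2 had no read in any sample.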
